A study of Mus musculus with 23 samples.

Results

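Primary tumors grown from CT26 cells were compared with the livers of sham-operated mice, gene by gene, and the contrast was then used as an axis on which to place the pre-metastatic livers of the tumor-bearing mice. CT26 is a colon carcinoma line of BALB/c origin. All mice were male BALB/c mice, 4 to 6 weeks old at the start and with no transgene. The 9 tumor-bearing mice (M1, M2, M4, M5, M6, M7, M8, M10 and M12) received CT26 cells in the wall of the cecum and each gave a primary tumor and a pre-metastatic liver, a liver taken before metastases are seen, 3 weeks later. The 5 sham-operated mice (C1, C4, C5, C6 and C7) received culture medium without cells and each gave a control liver. A gene entered the contrast when it had 10 or more counts in 5 or more of the 14 libraries of primary tumor and control liver, which held for 19320 of the 48895 gene symbols of the table. All 23 libraries are bulk poly(A) RNA, so a change in the share of a cell type and a change of RNA within that cell type cannot be told apart. A single line and a single host strain were used, and the tumor tissue holds host cells beside the injected cells.

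The liver is made up mostly of hepatocytes, which secrete the plasma proteins, make urea from ammonia, break down amino acids, synthesize bile acids and oxidize drugs and fatty acids with cytochrome P450 enzymes. These programs depend on a small network of transcription factors that includes HNF4A, the FOXA proteins and C/EBP alpha. Cells of adult liver seldom divide, whereas a transplanted carcinoma divides continuously and is built together with fibroblasts, vessels and immune cells of the host. A tumor in the gut also reaches the liver at a distance, and the acute phase response, in which hepatocytes secrete serum amyloid and other defense proteins, is a known part of that.

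The promoters of 2 cell division genes are printed here because every gene of the cell cycle list lay at the tumor end of the contrast. Each is the RefSeq window of 300 bases, 250 before the gene's start and 50 from it on, on GRCm38.p6, printed 5′ to 3′ on the gene's strand. In Cdc20 (an activator of the anaphase-promoting complex, chr4:118437294-118437593, minus strand) and Top2a (a topoisomerase of dividing cells, chr11:99024140-99024439, minus strand) the capitals mark CCAAT, the letters of the NF-Y site, and TTTGAA or TTCGAA, the letters of the cell cycle element known as CHR. Each motif was searched on both strands, so that a match on the other strand is printed as its reverse complement, and neighboring matches of different motifs were allowed to share letters.
Cdc20: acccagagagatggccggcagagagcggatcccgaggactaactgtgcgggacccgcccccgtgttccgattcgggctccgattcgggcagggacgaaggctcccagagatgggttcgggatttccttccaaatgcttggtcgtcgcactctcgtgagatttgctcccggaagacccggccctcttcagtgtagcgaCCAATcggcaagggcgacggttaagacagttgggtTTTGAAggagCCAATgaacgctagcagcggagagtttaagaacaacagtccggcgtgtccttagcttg
Top2a: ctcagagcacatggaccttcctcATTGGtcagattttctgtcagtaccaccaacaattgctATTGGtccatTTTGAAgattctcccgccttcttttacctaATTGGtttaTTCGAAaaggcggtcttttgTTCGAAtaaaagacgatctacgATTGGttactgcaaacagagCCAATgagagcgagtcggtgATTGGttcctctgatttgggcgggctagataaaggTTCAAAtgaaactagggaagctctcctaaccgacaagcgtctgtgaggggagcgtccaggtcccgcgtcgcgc
Of the 17 cell cycle genes with a window, 14 (82.4%) held CCAAT and 8 (47.1%) held TTTGAA or TTCGAA, against 38.2% and 14.9% of the 12539 tested genes with a window. A match says only that the letters are there.

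Total counts were 51064615 to 60393702 in control liver, 44587556 to 79773163 in pre-metastatic liver and 47005276 to 70884436 in primary tumor. The 10 genes with the most counts took a median of 16.0% of a control liver library, 19.7% of a pre-metastatic liver library and 5.45% of a tumor library. Levels are therefore given as scaled RPKM, which is the count per unit of gene length and of library size (RPKM) after TMM scaling of all 23 libraries, and folds as log2 differences from edgeR's quasi-likelihood test with Benjamini-Hochberg adjustment over all genes tested. The geometric mean of the TMM factor was 0.759 in control liver and 1.64 in tumor, so that a ratio of unscaled RPKM between tumor and control liver exceeds the log2 differences given here by 1.11. The median log2 difference of all tested genes was 0.18 with TMM, 0.14 with RLE factors, 0.36 with upper quartile scaling and 1.26 with total counts alone.

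Tumor and control liver differed in most genes. Of the 19320 genes, 15896 (82.3%) had an adjusted p under 0.05. With a minimum of 1 on the log2 scale, 6463 genes (33.5%) were higher in tumor, called tumor-high here, and 5278 (27.3%) were higher in control liver, called liver-high. The 9 tumors and the 5 control livers did not overlap in 5486 of the tumor-high and 4856 of the liver-high genes. These are part of the 6494 (33.6%) of all tested genes without overlap and higher in tumor and 6099 (31.6%) without overlap and lower.

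The hepatocyte lists were lower in tumor in every member, under TMM scaling. All 16 plasma protein genes were liver-high (log2 differences of -11.95 to -6.53, median -10.73), as were all 15 genes of the urea cycle and amino acid breakdown (median -11.34), all 9 of bile acid synthesis and transport (median -11.18), all 9 microsomal cytochrome P450 genes (median -11.15) and all 4 of gluconeogenesis (median -10.48). Of the 14 hepatocyte transcription factors all 14 were liver-high, with Foxa1 the least changed at -1.75, the 1 member that lost its call with total counts alone. Alb, the main plasma protein, stood at 30820, 32870, 31210, 30510 and 38150 scaled RPKM in the control livers and at 1.77 to 109 in the tumors, with a median of 2.69 (log2 difference -10.62 ± 1.26 SE, adjusted p = 8.88e-07). Apoa1, the main protein of high-density lipoprotein, ran from 14760 to 24030 in control liver and from 0.960 to 34.8 in tumor (-11.31 ± 1.09, adjusted p = 7.35e-08). Both genes lay several orders of magnitude apart in the tissues, with no overlap. Apoe, which macrophages are also known to make, kept 1.96% of its control-liver level in tumor, at 187 to 679 scaled RPKM (-5.65 ± 0.31, adjusted p = 6.06e-11). Cyp2e1, an ethanol-oxidizing enzyme, stood at 6143 to 7828 in control liver and 0.198 to 10.7 in tumor (-11.55 ± 1.20, adjusted p = 1.89e-07).

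**Figure D1:**
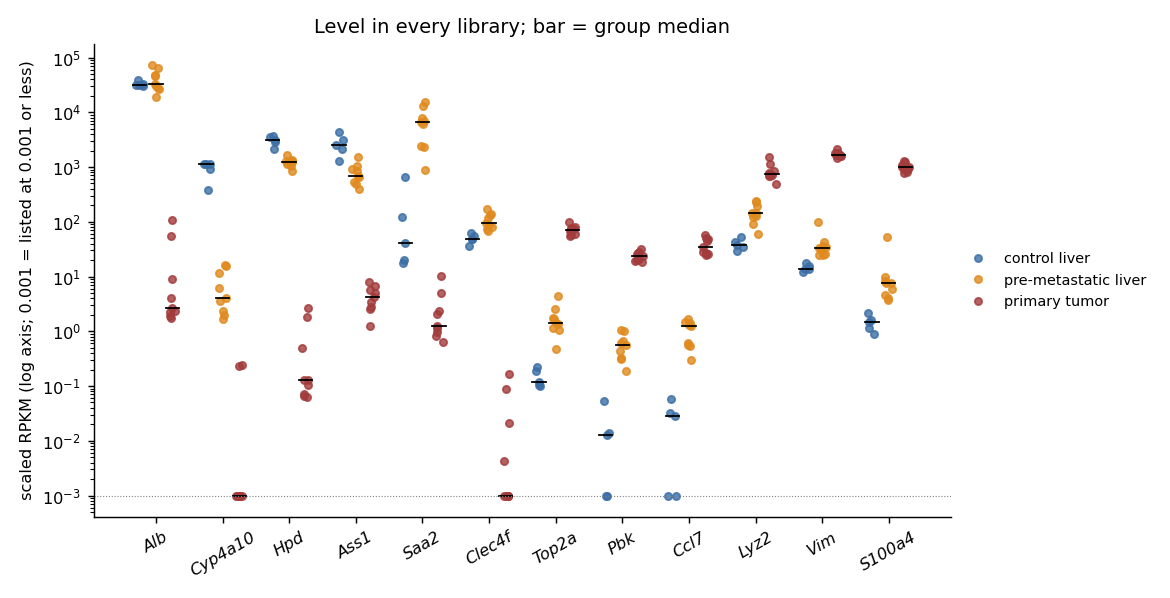
Level of 12 genes in each library as scaled RPKM on a log axis, by group (blue, 5 control livers; orange, 9 pre-metastatic livers; red, 9 primary tumors), with a bar at the group median and values of 0.001 or less drawn at 0.001. Alb lay at 30510 to 38150 in control liver and at 1.77 to 109 in tumor, whereas Top2a lay at 0.0986 to 0.224 and 55.5 to 97.3 with all pre-metastatic livers in between.

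The liver transcription factors differed in how much of their level remained in tumor. Hnf4a, the central regulator of hepatocyte genes, stood at 245, 345, 413, 359 and 197 in the control livers and at 0.00248 to 0.338 in the tumors (-11.48 ± 1.13, adjusted p = 9.54e-08). Cebpa, which myeloid cells also use, stood at 322 to 500 in control liver and at 5.36 to 14.6 in tumor (-5.55 ± 0.23, adjusted p = 1.92e-12), which is 2.09% of the control mean.

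Tumors M10 and M12 stood apart from the other 7 for these genes. Of 642 liver-high genes with a mean of at least 100 scaled RPKM in control liver, 190 had a tumor mean under 0.1% of it, and over those 190 the median gene stood at 0.126% of its control-liver level in tumor M10 and at 0.180% in tumor M12, against 0.00513% to 0.0220% in the other 7. Alb was 55.1 in tumor M10, 109 in tumor M12 and at most 8.85 in the others. The tumor means of such genes therefore rest largely on these 2 libraries, while 361 of the 642 kept at least 1% of the control-liver level. Some hepatocyte genes moved little without both mice, such as Ass1 (-9.25 in place of -9.21) and Arg1 (-4.56 in place of -4.55). Without both mice the log2 difference of Alb was -13.19 in place of -10.62, that of Mat1a -15.46 in place of -12.33, and the median of the plasma protein genes -12.80 in place of -10.73, while the count of liver-high genes was 5257 in place of 5278. How these transcripts came into the tumor libraries was not tested.

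**Figure D2:**
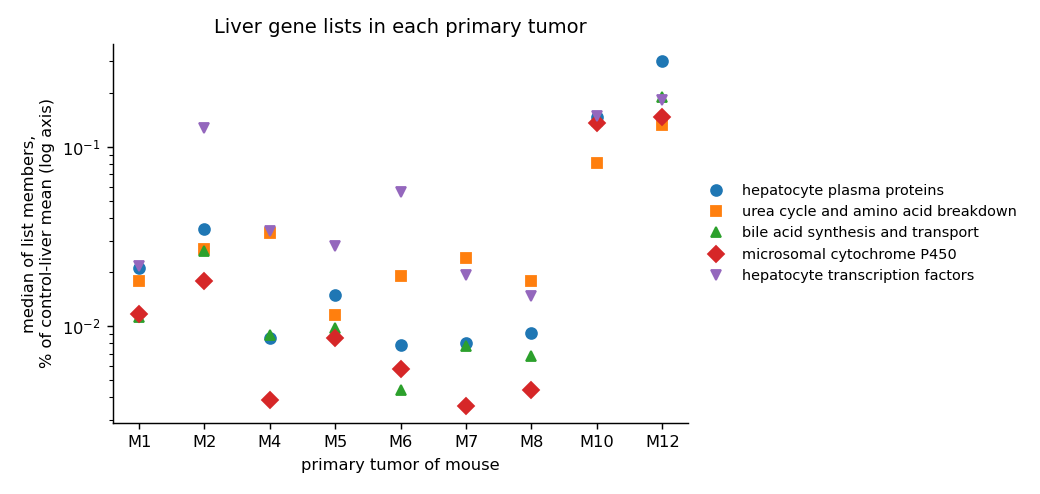
Median over the members of 5 liver gene lists in each primary tumor, as a percent of the control-liver mean on a log axis, one symbol per list. Tumors M10 and M12 lie at 0.0813% to 0.300% for every list, above the other 7 tumors for each list (plasma proteins, 0.00785% to 0.0346% in those 7; transcription factors, up to 0.126%, in M2).

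Pairs of isoenzymes in which the liver uses its own form separated along the contrast in 6 of 8 cases. The 8 liver forms were all liver-high (median log2 difference -10.78), and of the 8 widespread forms 6 were tumor-high. Pklr, the liver pyruvate kinase, stood at 16.9 to 30.5 in control liver and at most at 0.424 in tumor (-8.09 ± 0.78, adjusted p = 7.38e-08), whereas Pkm, the form of most other tissues and of tumors, stood at 6.54 to 11.6 in control liver and at 498 to 876 in tumor (6.14 ± 0.22, adjusted p = 4.09e-13). Gls2, the liver glutaminase, was lower in tumor (-7.89 ± 0.23, adjusted p = 5.02e-14). Of the widespread forms, Hk2, the hexokinase of many tumors, gave 5.53 and Aldoa, an aldolase of glycolysis, 1.39. Slc2a2 gave -10.43 and Slc2a1 2.79, a pair of glucose transporters counted here with the isoenzymes. Acss3 gave -7.70 and Acss1 2.01. In the other two pairs the widespread form was not tumor-high. Mat2a, the methionine adenosyltransferase of non-liver cells, passed the test at 0.56 ± 0.10 (adjusted p = 1.07e-04), under the fold minimum, beside -12.33 for Mat1a. Fbp2 was lower in tumor at -1.89 ± 0.59 (adjusted p = 0.00764), from a mean of 0.287 in control liver to 0.0757 in tumor, beside -11.14 for Fbp1. Control liver C7 alone held 0.762 of Fbp2, against 0.135 to 0.218 in the other 4. With total counts alone Mat2a passed the fold minimum and Fbp2 lost its call.

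With mitochondrial genes left out, Eef1a1, the translation elongation factor, had the highest tumor mean, 4058 scaled RPKM, and its log2 difference of 0.69 was under the fold minimum. Tpt1, a growth-related protein, stood at 903 to 1018 in control liver and 2501 to 4122 in tumor (1.74 ± 0.15, adjusted p = 2.58e-08). Lgals1, galectin 1, stood at 6.64 to 12.5 in control liver and at 1546 to 2757 in tumor (7.88 ± 0.23, adjusted p = 4.78e-14). Of 8 mesenchymal genes 7 were tumor-high and 1, Cdh2, was liver-high at -1.21, a call lost with total counts alone. Vim, the intermediate filament of mesenchymal cells, stood at 11.9, 17.8, 13.5, 15.8 and 13.5 in control liver and at 1455 to 2118 in tumor (6.91 ± 0.19, adjusted p = 2.91e-14). S100a4, a calcium-binding protein of motile cells, stood at 0.898 to 2.13 and at 787 to 1282 (9.47 ± 0.27, adjusted p = 3.96e-14). The 9 tumors differed little among themselves in either gene.

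Markers of epithelium were low in these tumors, although CT26 is a carcinoma line. Of 10 epithelial genes 7 could be tested, 6 were liver-high and none was tumor-high. The keratin Krt8 stood at 135 to 160 in control liver and at 0.0850 to 3.08 in tumor (-7.08 ± 0.70, adjusted p = 9.89e-08), and its partner Krt18 at 201 to 237 and 1.60 to 7.20 (-5.68 ± 0.31, adjusted p = 5.16e-11). Epcam had a mean of 0.183 in tumor and 0.717 in control liver, and its adjusted p was 0.0615. With total counts alone 4 of the 10 were liver-high. Of 10 markers of colon epithelium 5 could be tested, of which 2 were tumor-high and 2 liver-high. One was Krt20, a keratin of differentiated gut epithelium, at 16.4 to 66.1 in tumor and at most 0.0587 in control liver (10.68 ± 0.61, adjusted p = 1.09e-10). The other, the intestinal transcription factor Cdx2, had a tumor mean of 0.113. Muc2, the mucin of goblet cells, had a tumor mean of 0.0253 and Vil1, the brush border protein villin, 0.0434. The liver-high members were Lgals4, a galectin of gut epithelium, at 0.729 to 3.23 in tumor against a mean of 5.68 in control liver (-1.97 ± 0.32, adjusted p = 2.81e-05), and the stem cell receptor Lgr5 (-6.82 ± 0.60, adjusted p = 2.19e-08). Of the colon markers Krt20 alone had a tumor mean above 1.42 scaled RPKM.

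The largest rises among genes of at least 10 RPKM in tumor were in genes that control liver hardly expressed. Glod5 had no count in any of the 5 control livers and 5.14 to 20.1 scaled RPKM in tumor, at least 150-fold higher against a floor of 3 counts in each control library. Cldn9, a claudin of tight junctions, also had 0 counts in control liver and 0.897 to 11.97 in tumor, at least 134-fold higher against the same floor. Klk10, a secreted serine protease, had 1 count over the 5 control livers and 8.49 to 26.8 scaled RPKM in tumor, and Crabp2, a retinoic acid carrier, had 2 counts and 7.30 to 34.7. The ratio of scaled levels was 4836 for Klk10 (95% counting interval 868 to 191000) and 2254 for Crabp2 (624 to 18610). These intervals cover counting error only.

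Genes of the Y chromosome were also low in tumor. Ddx3y stood at 21.5, 24.3, 15.2, 22.3 and 21.3 in control liver, at 14.3 to 21.8 in pre-metastatic liver and at 0.903 to 1.87 in tumor (-3.82 ± 0.17, adjusted p = 4.04e-12), which is 6.90% of the control mean. Eif2s3y gave 5.81% (-4.07 ± 0.24, adjusted p = 1.73e-10). All mice were male, and neither gene overlapped between tumor and liver.

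All 20 genes of the cell cycle list were tumor-high (log2 differences of 2.37 to 9.99, median 6.78). Top2a, whose promoter is printed above, stood at 0.0986, 0.105, 0.191, 0.118 and 0.224 in control liver and at 55.5 to 97.3 in tumor (8.94 ± 0.28, adjusted p = 9.63e-14). Pcna, the clamp of replication forks, which control liver already expressed at 21.1 to 27.4, stood at 111 to 188 in tumor (2.76 ± 0.13, adjusted p = 5.84e-12).

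**Figure D3:**
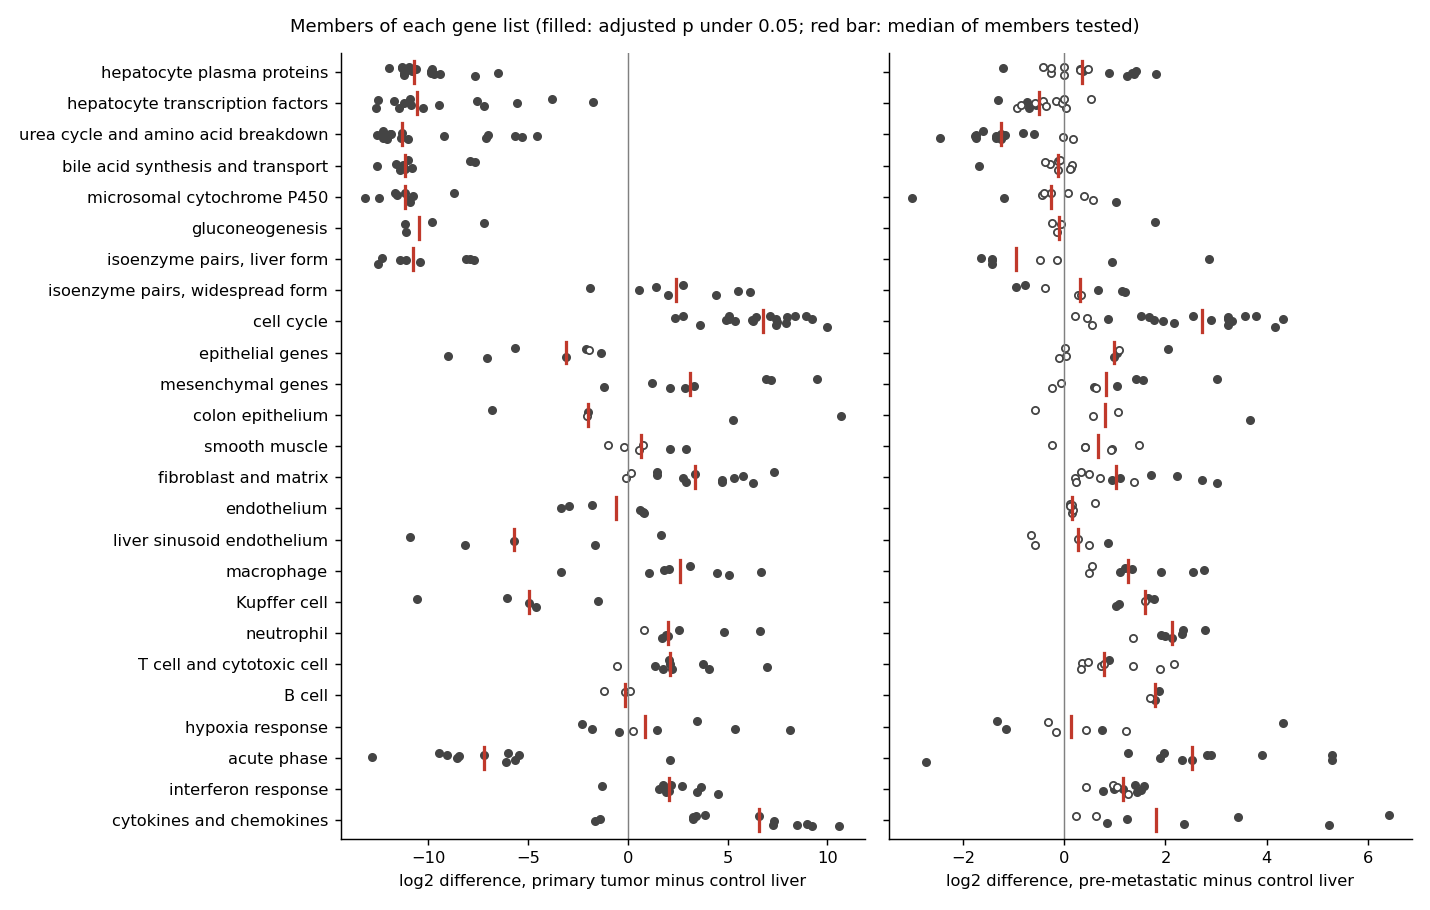
Each point is 1 gene of a list (rows), placed at its log2 difference between primary tumor and control liver (left) or between pre-metastatic and control liver (right), filled when the adjusted p was under 0.05 and with a red bar at the median. Hepatocyte lists sit at medians of -11.34 to -10.48 on the left, while on the right the cell cycle list sits at 2.72, the acute phase list at 2.52 and the urea cycle list at -1.24.

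The pre-metastatic livers were then placed on this axis. A gene counted as placed between when the pre-metastatic livers differed from control liver toward the tumor (adjusted p under 0.05 in a fit of 14 livers) and the tumors differed from the pre-metastatic livers in the same direction (adjusted p under 0.05, paired by mouse). Both comparisons share libraries with the tumor contrast: the 5 control livers stand in the first as well. Of all 16358 genes tested in the livers, 17.7% rose and 13.5% fell from control to pre-metastatic liver, and 44.3% of the 19320 genes were higher and 38.1% lower in tumor than in the liver of the same mouse. Of the 6463 tumor-high genes 4208 had enough counts in the livers to be tested and 1386 were placed between. In another 166 the livers had moved toward the tumor and did not differ from it by the test, in 31 they were past the tumor, in 77 they had moved away and in 2548 they gave no call. Of the 5278 liver-high genes 5249 could be tested and 1140 were placed between, 73 did not differ from the tumor, 3 were past it, 618 had moved away and 3415 gave no call. The count minimum removed 34.9% of the tumor-high and 0.549% of the liver-high genes, and a tumor-high gene with few counts in control liver passed it only where the pre-metastatic livers were high. Over all called genes the livers moved toward the tumor in 24.5% of tumor-high and 23.04% of liver-high genes, and away in 1.19% and 11.7%. Among the genes with 10 or more counts in every control liver, a minimum added after seeing the data, they moved toward it in 37.1% of 3294 tumor-high and 24.0% of 5019 liver-high genes, away in 2.22% and 12.1%, and 1084 and 1136 genes were placed between. A clock index from 6 circadian genes put 1 of 5 control and 4 of 9 pre-metastatic livers on its late side, and with early-side mice alone 1106 and 1075 genes were placed between.

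On the log2 scale the distance covered was a minor part of the axis. The position of a gene is the log2 difference of pre-metastatic from control liver as a percent of that of tumor from control liver. For the 1386 tumor-high genes placed between, the median position was 34.7% (quartiles 25.2% and 45.6%), and for the 1140 liver-high genes 23.5% (quartiles 15.3% and 35.4%), where the call itself removes small positions. Over the genes with 10 or more counts in every control liver the median was 15.9% for tumor-high and 4.47% for liver-high genes. The 3 groups stood in order without any overlap in 447 tumor-high and 388 liver-high genes. These are part of the 449 (2.32%) of all tested genes in rising and 419 (2.17%) in falling order.

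Most division genes were placed between. Of the 20 cell cycle genes 17 were higher in pre-metastatic liver, none was lower, and all 17 were placed between (median log2 difference from control liver 2.72, against 0.0067 over all genes tested). Of the 20, 14 had 10 or more counts in every control liver and so were tested whatever the pre-metastatic livers held, and 11 of those 14 were placed between. Pcna at 0.21 ± 0.11 (adjusted p = 0.156), Aurka and Tyms gave no call. Top2a stood at 0.472 to 4.38 in the pre-metastatic livers with a median of 1.42, above every control liver and below every tumor (3.57 ± 0.48 from control, adjusted p = 1.19e-04), a position of 39.9%. The control livers held at most 6 counts in any library of the next genes, which are among the 8 largest moves in order without overlap. They passed the count minimum through the pre-metastatic livers, so their values are given as a description with no test. Ckap2, a spindle protein, stood at 0.0171, 0.00832, 0.0238, 0.0374 and 0.0250 in control liver, at 0.139 to 1.88 in pre-metastatic liver and at 16.2 to 26.3 in tumor (log2 difference of the livers 5.16). Pbk, a mitotic kinase, stood at most at 0.0534 in control liver, at 0.189 to 1.05 in pre-metastatic liver and at 18.8 to 31.4 in tumor (4.99). The spindle protein Hmmr (4.79) and the kinetochore proteins Casc5 (4.88) and Kntc1 (4.72) followed the same order, as did Iqgap3 (4.83), a scaffold protein of proliferating cells. The control livers held 6 to 13 counts of each of Ckap2, Pbk, Hmmr, Casc5, Kntc1 and Iqgap3 in all, so that their levels at the low end are imprecise. ENSMUSG00000090252.1, with 1 count in the 5 control livers, gave 4.84 and overlaps 4 annotated genes of the region. Its order held without overlap in unscaled RPKM and not in scaled RPKM.

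The remaining gene of the 8, Ccl7, is a chemokine that draws monocytes. It stood at 0, 0.0571, 0, 0.0320 and 0.0286 in control liver, at 0.294 to 1.67 in pre-metastatic liver and at 24.5 to 56.2 in tumor (5.23 from control liver), with 4 counts in the control livers in all. Its relative Ccl2, with the same receptor, stood at 0.0873 to 0.939, 0.913 to 4.07 and 42.6 to 161 (2.37) and overlapped slightly between the livers. Of 14 cytokines and chemokines 11 were tumor-high, 8 could be tested in the livers and 5 were placed between, of which 2 had 10 or more counts in every control liver.

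Genes nearly absent from control liver and high in tumor, called tumor-restricted here, were uneven among the pre-metastatic livers. The name refers to control liver only. The set holds Casc5 and Ccl7, which were placed between, and other division genes such as Cdc25c and Cenph, so it overlaps the genes placed between. The 72 genes with at most 3 counts in every control liver and a tumor mean of at least 5 RPKM, chosen after their values were seen, summed to 28 to 55 counts in the control livers, which the choice fixes, and to 69850 to 121832 in the tumors. In the pre-metastatic livers they summed to 116 counts in M2, 259 in M4, 275 in M8, 367 in M10, 378 in M5, 383 in M1, 454 in M7, 671 in M12 and 1320 in M6. As scaled levels these are 0.303% of the mean tumor in M2, a median of 1.09% and 3.56% in M6. Liver M6 lay far above the others for S100a4 (53.7 against at most 9.84), Vim (99.5 against at most 42.6) and Krt20 (2.04 against at most 0.278). The linear gain of a gene is the pre-metastatic mean minus the control mean, as a percent of the tumor mean minus the control mean. The 1386 tumor-high genes placed between had a median linear gain of 12.4%, and of 12.2% when M6 was left out. They were chosen for their rise in the livers, so these gains only describe them. The 17 cell cycle genes placed between had a median of 3.87%, and of 3.17% without M6. Lower values were those of Vim (1.44%), S100a4 (1.02%), Krt20 (0.761%), Lgals1 (1.68%) and Pkm (1.91%). The control livers held 10 counts of Krt20 in all, so this gene entered the liver fit through the pre-metastatic livers. Its placing is therefore a description and not a test result. Without mouse M6, Krt20 gave 2.14 in place of 3.67 and was no longer placed between. In the same fit S100a4 gave 2.15 in place of 3.01 (adjusted p = 1.63e-04) and Top2a 3.27 in place of 3.57 (adjusted p = 6.35e-05). There 18 cell cycle genes were placed between. The part of tumor RNA in these rises was not tested.

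**Figure D4:**
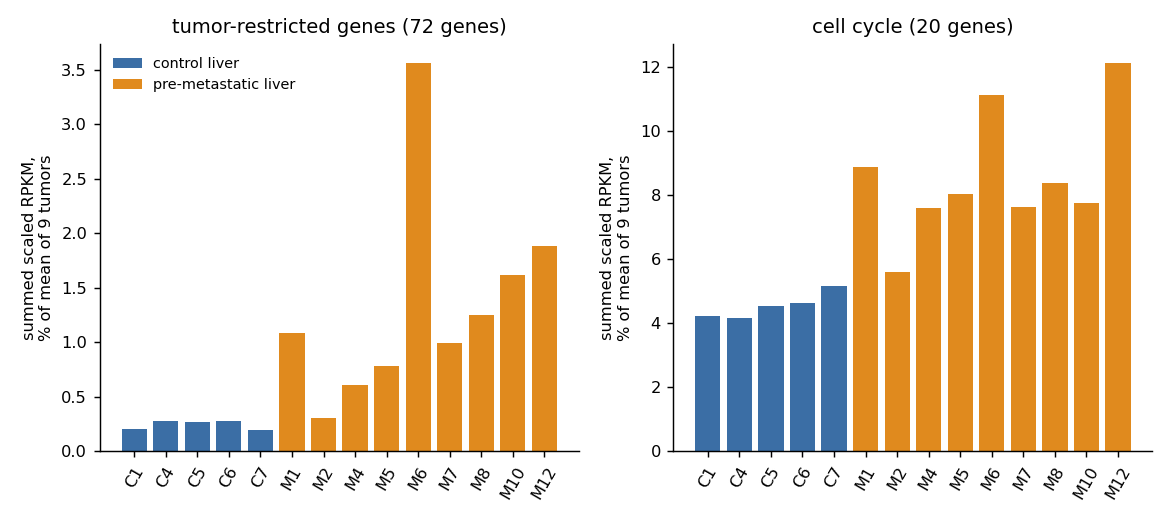
Summed scaled RPKM in each liver as a percent of the mean of the 9 tumors, for the 72 tumor-restricted genes (left) and the 20 cell cycle genes (right), blue for control and orange for pre-metastatic livers. The tumor-restricted genes reach 3.56% in M6 and 0.303% to 1.89% in the other 8, and the cell cycle genes lie at 4.16% to 5.15% in control and 5.60% to 12.1% in pre-metastatic liver.

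Some macrophage, fibroblast and interferon response genes were placed between as well, as were 1386 of all 4208 testable tumor-high genes. With 10 or more counts in every control liver it was 5 of 7, 4 of 9 and 6 of 9 tumor-high members, against 1084 of 3294. The linear gains of the members placed between were 5.85% to 41.5%, 1.47% to 18.3% and 8.87% to 47.6%. Those of the cell cycle genes were 1.45% to 23.1%, and these differences were not tested. Of 8 macrophage genes 7 were tumor-high and 5 were placed between. Lyz2, lysozyme of myeloid cells, stood at 28.9, 53.5, 38.1, 43.2 and 35.1 in control liver, at 59.3 to 238 in pre-metastatic liver and at 496 to 1512 in tumor (1.91 ± 0.29 from control liver, adjusted p = 2.77e-04), with no overlap. Cd68, a lysosomal protein of macrophages, stood at 2.80 to 6.55, 8.10 to 17.5 and 33.2 to 59.6 (1.34 ± 0.21, adjusted p = 3.44e-04). Of 13 fibroblast and matrix genes 11 were tumor-high and 5 placed between, among them Col1a2, a chain of type I collagen, at 1.99 to 3.46, 5.01 to 22.2 and 160 to 274 (2.22 ± 0.33, adjusted p = 2.11e-04). Fn1, fibronectin, which hepatocytes also secrete, did not differ by the test between tumor and control liver (0.15 ± 0.17, adjusted p = 0.420) and stood above both in pre-metastatic liver, at 418 to 844 against 229 to 323 in control liver (1.10 ± 0.19, adjusted p = 7.31e-04). Of 11 interferon response genes 10 were tumor-high and 6 were placed between. Gbp2, an interferon-induced GTPase, stood at 0.688 to 3.98, 4.84 to 12.2 and 25.3 to 122 (1.52 ± 0.34, adjusted p = 0.00366), and Isg15 gave 1.17 ± 0.30 (adjusted p = 0.00772) with overlap between the groups.

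Neutrophil genes were higher in both tumor and pre-metastatic liver than in control liver. Of 8 genes 7 could be tested, 6 were tumor-high and 6 were higher in pre-metastatic than in control liver, and 3 were placed between, of which 1 had 10 or more counts in every control liver. S100a8, a calcium-binding protein of neutrophils, stood at 2.39, 2.92, 9.44, 3.60 and 7.90 in control liver, at 3.08 to 72.8 in pre-metastatic liver and at 2.07 to 57.1 in tumor. The groups overlapped, the livers differed by 2.32 ± 0.62 (adjusted p = 0.0103), and the tumor did not differ from the liver of the same mouse by the test (-0.79, adjusted p = 0.235). S100a9 gave 2.12 ± 0.54 (adjusted p = 0.00833) in the livers and an adjusted p of 0.430 between tumor and liver. Genes of T and cytotoxic cells were tumor-high in 8 of 9 cases, and 0 of them were placed between, with 1 (Cd4, not tumor-high) higher in pre-metastatic liver by edgeR and 3 placed between by DESeq2. Gzmb, a protease of cytotoxic cells, had 7.07 to 41.8 in tumor and 0.215 to 2.03 in control liver (4.05 ± 0.62, adjusted p = 1.77e-05), and its livers gave 1.35 ± 0.79 (adjusted p = 0.209). Prf1, perforin, was 45.1 in tumor M12 and 4.05 to 15.5 in the others.

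The endothelium and the low-oxygen response did not act as one group. None of 6 endothelial genes was tumor-high and 3 were liver-high, while with total counts alone 3 were tumor-high and 2 liver-high. Among sinusoid genes Clec4g, a lectin of liver sinusoids, was lower in tumor (-10.91 ± 0.50, adjusted p = 6.96e-12) and Stab1, also a macrophage scavenger receptor, higher (1.67 ± 0.23, adjusted p = 5.54e-06). Of 6 smooth muscle genes 2 were tumor-high and 4 gave no call, beside 33.5% tumor-high among all tested genes. Smtn gave the largest difference at 2.94 ± 0.13 (adjusted p = 3.25e-12). The members without a call were Myh11 (-0.97), Synm (-0.21), Cnn1 (0.54) and Des (0.78). Of 8 hypoxia genes 4 were tumor-high and 2 liver-high. Ndrg1 stood at 6.96 to 9.19 in control liver and 36.4 to 189 in tumor (3.49 ± 0.37, adjusted p = 2.65e-07), while Bnip3, a mitophagy receptor, stood at 211 to 328 in control liver, 59.3 to 181 in pre-metastatic liver and 28.2 to 95.4 in tumor (-2.28 ± 0.28, adjusted p = 1.42e-06).

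On the liver side, nitrogen and amino acid metabolism was the list in which the pre-metastatic livers had moved furthest toward the tumor. Of its 15 genes 13 were lower in pre-metastatic liver and placed between, none was higher, and the median log2 difference was -1.24. Otc and Fah gave no call. Hpd, an enzyme of tyrosine breakdown, stood at 3749, 3087, 3535, 2902 and 2154 in control liver, at 843 to 1661 in pre-metastatic liver and at 0.0636 to 2.61 in tumor (-1.34 ± 0.15 from control liver, adjusted p = 4.50e-05), in order with no overlap and at a position of 10.9%. Ass1, the urea cycle enzyme that makes argininosuccinate, stood at 1314 to 4407, 398 to 1530 and 1.23 to 7.83 (-1.76 ± 0.30, adjusted p = 6.45e-04), with overlap between the livers. Over all testable liver-high genes 1140 of 5249 were placed between. Of the other liver lists, 4 of 14 transcription factors and 2 of 9 cytochrome P450 genes were placed between. So were 1 of 9 bile acid genes, 1 of 16 plasma protein genes and 0 of 4 gluconeogenesis genes. With early-side mice alone 7 transcription factors were placed between. In the fit of all 14 livers, the transcription factor Hnf4a was placed between at -0.69 ± 0.20 (adjusted p = 0.0157). So were 2 enzymes of the other lists in that fit. Cyp8b1, which sets the cholic acid share of bile, gave -1.67 ± 0.19 (adjusted p = 4.58e-05). Cyp3a11, a drug-oxidizing enzyme, gave -3.00 ± 0.59 (adjusted p = 0.00152). Of the 8 liver isoenzymes 4 were placed between, among them Mat1a (-1.65), Gls2 (-1.43) and Acss3 (-1.42).

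Cyp4a10, an omega-hydroxylase of fatty acids and a known PPAR alpha target, stood at 912, 1117, 374, 1130 and 1134 in control liver and at 1.69 to 16.3 in pre-metastatic liver, and was listed at 0 in 7 of 9 tumors. The livers differed by -7.05 ± 0.60 (adjusted p = 6.16e-06), a position of 50.2%. Its relative Cyp4a14 gave -7.40 ± 0.83 (adjusted p = 4.50e-05) and was listed at 0 in 6 tumors. How reads were divided between these near-identical genes is not given in the sources used here. Without M10 and M12 the tumor difference of Cyp4a10 was -20.07 in place of -14.04, so its position depends on few tumor counts. Apoa4, an apolipoprotein of lipid absorption and transport, stood at 4916, 5666, 395, 2632 and 5608 in control liver, at 82.7 to 298 in pre-metastatic liver and at 0 to 1.29 in tumor (-4.64 ± 0.48, adjusted p = 2.69e-05). The antisense genes ENSMUSG00000074373.6 (-4.59) and ENSMUSG00000111282.1 (-4.24) overlap Apoa4 on the other strand, and since no strand setting is given, their reads and those of Apoa4 cannot be told apart. Cyp2b10 stood at 34.7, 12.5, 59.0, 16.9 and 3.29 in control liver and at 0.0797 to 1.91 in pre-metastatic liver (-5.46 ± 0.67, adjusted p = 6.63e-05). Cyp17a1, a steroid-forming enzyme (-4.13), Cidec, a lipid droplet protein (-3.48), and Gm32800 (-3.40) were, with Cyp4a10, Apoa4 and its antisense genes and Cyp2b10, the 8 largest moves in order without overlap of unscaled RPKM. Cyp4a14 was in order in scaled RPKM only. Gm39079, with 1 count in 9 tumors against 6876 in 5 control livers, was among the largest tumor falls (27170 times higher in control liver, 95% counting interval 4875 to 1073000), and its livers gave -1.18 ± 0.20 (adjusted p = 4.95e-04).

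The acute phase list ran against the axis. Of 11 genes 10 were liver-high, with Saa3 tumor-high at 2.12, and 10 of the 11 were higher in pre-metastatic than in control liver (median log2 difference 2.52), so that 9 of the liver-high genes had moved away from the tumor. Saa2, a serum amyloid, stood at 671, 121, 20.1, 41.0 and 17.6 in control liver, at 881 to 15560 in pre-metastatic liver and at 0.650 to 10.3 in tumor (5.29 ± 1.06 from control liver, adjusted p = 0.00177). Every pre-metastatic liver was above every control liver and every tumor below them. Orm2, an acid glycoprotein, stood at 63.8, 31.8, 38.5, 23.5 and 18.1, then at 248 to 2699 and at 0 to 2.41 (5.29 ± 0.67, adjusted p = 8.00e-05), and Hp, haptoglobin, gave 1.26 ± 0.30 (adjusted p = 0.00576). The exception was Hamp, the iron hormone hepcidin, at 2620 to 7134 in control liver, 43.7 to 1571 in pre-metastatic liver and 0 to 2.37 in tumor (-2.73 ± 0.68, adjusted p = 0.00690), which was placed between. Of the plasma protein genes 7 were higher in pre-metastatic liver as well.

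Kupffer cell genes, of the resident macrophages of the liver, moved away too. All 5 were liver-high and 4 were higher in pre-metastatic liver. Clec4f stood at 35.8, 62.1, 49.1, 55.7 and 48.4 in control liver, at 67.7 to 170 in pre-metastatic liver and at 0.169 or less in tumor (1.09 ± 0.22, adjusted p = 0.00179), and Cd5l gave 1.65 ± 0.23 (adjusted p = 1.29e-04). Thrsp, a regulator of fat synthesis, stood at 4.61 to 17.0 in control liver, 31.5 to 786 in pre-metastatic liver and 0.379 or less in tumor (4.57 ± 0.84, adjusted p = 9.93e-04). The liver isoenzyme Pklr was higher in pre-metastatic than in control liver (2.86 ± 0.36, adjusted p = 8.00e-05) while at most at 0.424 in tumor.

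Of the testable tumor-high genes 77 moved away, and for the gene with the largest such move a single control liver decided the value. Acsbg1, an acyl-CoA synthetase, stood at 0.0977, 0.0476, 0.0259, 1.62 and 0.0682 in control liver and at 0.0356 to 0.164 in pre-metastatic liver (-2.34 ± 0.79, adjusted p = 0.0336), and without C6 the difference was 0.26. Vldlr, a lipoprotein receptor, stood at 0.631, 0.818, 0.801, 0.413 and 3.02 against 0.143 to 0.462 (-2.08 ± 0.40, adjusted p = 0.00131), with C7 the highest. Camk2n2, an inhibitor of the kinase CaMKII, stood at 1.41 to 3.19 in control liver, 0.534 to 1.46 in pre-metastatic liver and 4.10 to 6.22 in tumor (-1.39 ± 0.27, adjusted p = 0.00152). Among the widespread forms of the pairs, Aldoa (-0.96 ± 0.15, adjusted p = 2.97e-04) and the transporter Slc2a1 (-0.77 ± 0.14, adjusted p = 8.92e-04) were lower in pre-metastatic than in control liver though tumor-high. By contrast, Pkm (1.20 ± 0.24, adjusted p = 0.00196) and Hk2 (1.14 ± 0.21, adjusted p = 0.00111) were placed between.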

How the data were processed

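Poly(A) RNA libraries of 23 tissues were made with the NEBNext Ultra kit. Per the labels, reads were aligned to mm10 with HISAT2 and counted with HTSeq 0.6.0. Strand settings and the annotation are not given in the sources used here. The authors deposited raw counts per gene, without normalization, and RPKM, the count per unit of gene length and of library size. Columns were matched to samples by mouse and tissue code. The 2 symbols present on more than 1 line were summed. Tumor against control liver, pre-metastatic against control liver, and tumor against pre-metastatic liver (paired by mouse, the same animal) were fitted with edgeR 4.0.16 in R 4.3.3 (TMM, quasi-likelihood, two-sided), with limma 3.58.1 and DESeq2 1.42.0 as support or alternative. Levels and totals are limited by counting error and by the spread between mice. Each mouse gave 1 library per tissue, so n counts mice. Deviations from group means correlated at a mean of 0.0814 between tumor and liver of one mouse. No library was a copy of another. The steps were tested on simulated counts. Python 3.11.15, numpy 2.4.6, scipy 1.17.1, pandas 2.3.3 and matplotlib 3.10.9 were used. The rule for named genes takes the 5 most abundant of each tissue (mitochondrial genes left out), the 5 largest rises and falls, 2 abundant members of each list and every isoenzyme, the 8 largest ordered moves toward and the 3 largest moves away from the tumor on each side. Other genes named (such as Foxa1, Cdh2, Epcam, Saa3 and the printed promoters) were chosen after their values were seen. Lists, members and rules were chosen with earlier results of these data known. Protein sequences are not used here. Some genes that the rule takes are not reported here.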

Additional observations from a re-analysis of the deposited data

Results flagged for a closer look

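A library was picked out where the highest or lowest of a group lay far from the nearest other library for the group's whole range, by Dixon's 95% value. Of 261 groups tested over 86 genes, 40 were picked out in all. Chance alone picks out about 1 in 20 only where values are normally distributed. The values used were not logged, and a group with counts in 1 library only is always picked out. The number picked out is therefore not set against that rate. All values are scaled RPKM unless a percent is given.

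Liver M6 was the high library for Lgals1 (120.1), Iqgap3 (0.7824), Vim (99.5), S100a4 (53.67), Krt20 (2.039), Prf1 (2.228), Cyp17a1 (9.469), Cldn9 (0.325), Klk10 (0.5908) and Crabp2 (0.6436), and for the summed tumor-restricted genes (3.56% of the mean tumor). Other pre-metastatic livers stood apart in Apoe (15780, M10), Kntc1 (0.4328, M12), Cyp4a14 (22.7, M7), Cyp2b10 (1.912, M2), Gzmb (11.2, M5), Ctrb1 (0.05916, M1) and Cel (0.01038, M5). The values of Ctrb1 and Cel there rest on 2 counts and 1 count.

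Tumor M12 stood apart in Alb (109.1), Orm2 (2.413), Saa2 (10.28), Gm39079 (0.01071) and Prf1 (45.11), tumor M2 in Cd5l (5.921) and Lgals4 (3.226), and tumor M6 in Ctrb1 (33.05) and Cel (2.635). The Gm39079 value of tumor M12 rests on 1 count.

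Control liver C1 stood apart in Mat1a (4265), ENSMUSG00000090252.1 (0.02636), Saa2 (670.9), Acss1 (0.5092) and Ctrb1 (0.02645). Control liver C7 stood apart in Aldoa (59.57, the lowest), Pbk (0.05344), Vldlr (3.019), Fbp2 (0.7623) and Klk10 (0.01694). Control liver C5 stood apart in Kntc1 (0.01429) and Crabp2 (0.04837), and C6 in Acsbg1 (1.618). Of these, several low values in control liver rest on 1 to 5 counts.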

How the results depend on the processing

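The counts of 6463 tumor-high, 5278 liver-high, 1386 tumor-high placed between and 1140 liver-high placed between were recomputed under each alternative. With total counts alone 10633 genes were higher and 3157 lower in tumor (77.1% higher, against 55.0% with TMM), and 689 liver-high genes were placed between. A minimum of 2 on the log2 scale left 3307 lower genes. Asking for order without overlap left 447 and 388 genes in scaled RPKM and 437 and 235 in deposited RPKM. Leaving out 1 mouse at a time gave 6406 to 6545, 5177 to 5294, 1139 to 1388 and 918 to 1146. Leaving out M10 and M12, chosen after seeing the data, gave 6445, 5257, 1359 and 1135. Asking for 10 counts in every control liver, also chosen after seeing the data, gave 1084 and 1136 genes placed between. DESeq2 gave 6347, 5382, 1540 and 1298. The number in the mouse name as a replicate block gave 6341, 5240, 1009 and 864. Same-numbered tumor-bearing and sham mice are different animals. Their deviations correlated at a mean of 0.0292 (tumor and control liver) and -0.0175 (both livers). Tumor and liver of one mouse gave only 0.0814, so these correlations cannot decide whether the numbers mark a shared condition. Without the block by mouse 1376 and 1146 genes were placed between. The log2 difference of Acsbg1, pre-metastatic against control liver, ranged from -2.64 to 0.26 when 1 library was left out, and reversed to 0.26 without control replicate 6.

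Low control counts limit the levels of tumor-restricted genes, and tumor counts near 0 limit the size of the hepatocyte falls. Counting error, tissue makeup and RNA per cell were not separated.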

Other observations

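Pancreatic acinar genes had too few counts to enter the contrast and were present in tumor M6 alone among the tumors. The protease Ctrb1 stood at 33.1 and the lipase Cel at 2.64 scaled RPKM there, and the 4 genes of the list summed to 3098 counts in that tumor against 0 to 2 in the other 8. Their source was not tested.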
